A study of Mus musculus with 46 samples.

Results

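The quinone, carbonyl and aldehyde detoxifying enzymes described here are 8 genes, Nqo1, Cbr1, Cbr3, Akr1b8, Akr1c13, Aldh3a1, Aox1 and Ephx1, of the 13411 genes with 1 symbol that were tested on these arrays. They were taken by symbol, from the annotation of the probe sets on 3 oligonucleotide array types called A, B and C. All 8 were on array type A, Cbr3 also on C and none on B, and 11 probe sets carried them. The study measured total RNA of mouse lung in 8 groups, which were lungs of Nrf2 mutant mice and of wild type mice, each before exposure (0 h) and at 24, 48 or 72 h of breathing 100% oxygen. The sources used here do not give the allele, strain, sex or age of the mice, so the groups are called mutant and wild type. Each group had replicates 1a and 1b, with 46 arrays in all, and on array type A only replicate 1b was used for mutant 0 h and for wild type 24 h (n = 1). Nothing says that 1a and 1b were separate animals, so p-values measure the spread between these samples, which may be technical.

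These enzymes take reactive carbon compounds out of circulation. Quinone reductase and the carbonyl, aldo-keto and epoxide enzymes convert quinones, ketones, aldehydes and epoxides into alcohols, hydroquinones and diols, and aldehyde dehydrogenases and oxidases convert aldehydes into acids. High oxygen peroxidises membrane lipids, which releases reactive aldehydes, and the airway epithelium of the lung is a known site of such enzymes. The transcription factor Nrf2, the product of Nfe2l2, binds antioxidant response elements, and Nqo1 is among its best known target genes. Nqo1 and Aldh3a1 are also known targets of the aryl hydrocarbon receptor, AHR.

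The lung markers Sftpc (alveolar type 2 cells), Scgb1a1 (club cells) and Ager (alveolar type 1 cells) were bright on every array of type A, at 9365 or more. The Nfe2l2 signal checked the genotype labels, lying between 302.5 and 448 on the 7 mutant arrays of type A, against 2428 to 4488 on the 7 wild type ones. The 5 mutant 0 h arrays stood apart from the other 41. Their mean correlation with arrays of their own type was 0.827 to 0.858, against 0.879 to 0.940 elsewhere. The signal of the 3' over the 5' Gapdh probe sets, which rises as RNA degrades, was 1.67 to 2.26 there and 0.858 to 1.54 on the others. Their deposited values had at most 6 decimals, as did those of wild type 24 h replicate 1a on array types B and C. The rest had up to 16 or 17, and whether the processing differed is not known. Of 12 squamous epithelium markers, 10 were on array type A, and their summed intensity was 26115 on the mutant 0 h array and at most 2571 on the other 13. Sums of this kind follow their brightest markers. Of those tested, Sprr3 (log2 5.38), Krt4 (3.29) and Sprr1a (2.65) were higher in the mutant than in wild type at 0 h. Krt13 (log2 -0.07), Krt6a (0.08) and Trp63 (-0.04) hardly differed. For 7 skeletal muscle markers, all on that array type, the sum was 26822 on the mutant 0 h array. Of those tested, Acta1 (log2 3.54), Tnnc2 (3.18), Tnnt3 (2.73), Mylpf (1.08) and Myh4 (0.41) were higher at 0 h and Ckm (-1.38) lower. The part of this squamous and muscle signal in the 0 h values below was not tested, and the comparisons that lead the text use the oxygen times alone. At those times every mutant array has a later sample number than every wild type array. The sources used here do not say what that order reflects, and it cannot be told apart from genotype. In whole lung RNA, fewer cells of a type and less RNA per cell cannot be told apart.

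Averaged over 24, 48 and 72 h of oxygen, 4 of the 8 enzymes were lower in mutant than in wild type lungs and 0 were higher. These were the aldehyde oxidase Aox1, the quinone reductase Nqo1, the aldo-keto reductase Akr1b8 and the aldehyde dehydrogenase Aldh3a1. In that comparison 1.25% of all 26833 tested probe sets were called in either direction and 0.663% were called lower, a call being an adjusted p under 0.05 in limma. Nqo1 was tested only because its wild type arrays lay above the filter, so it had to come out lower. The other 4, Cbr3, Ephx1, Cbr1 and Akr1c13, were not called. The median log2 difference was -0.77 over the 8 genes, described by the brightest probe set each, and -0.01 over all tested probe sets.

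**Figure D1:**
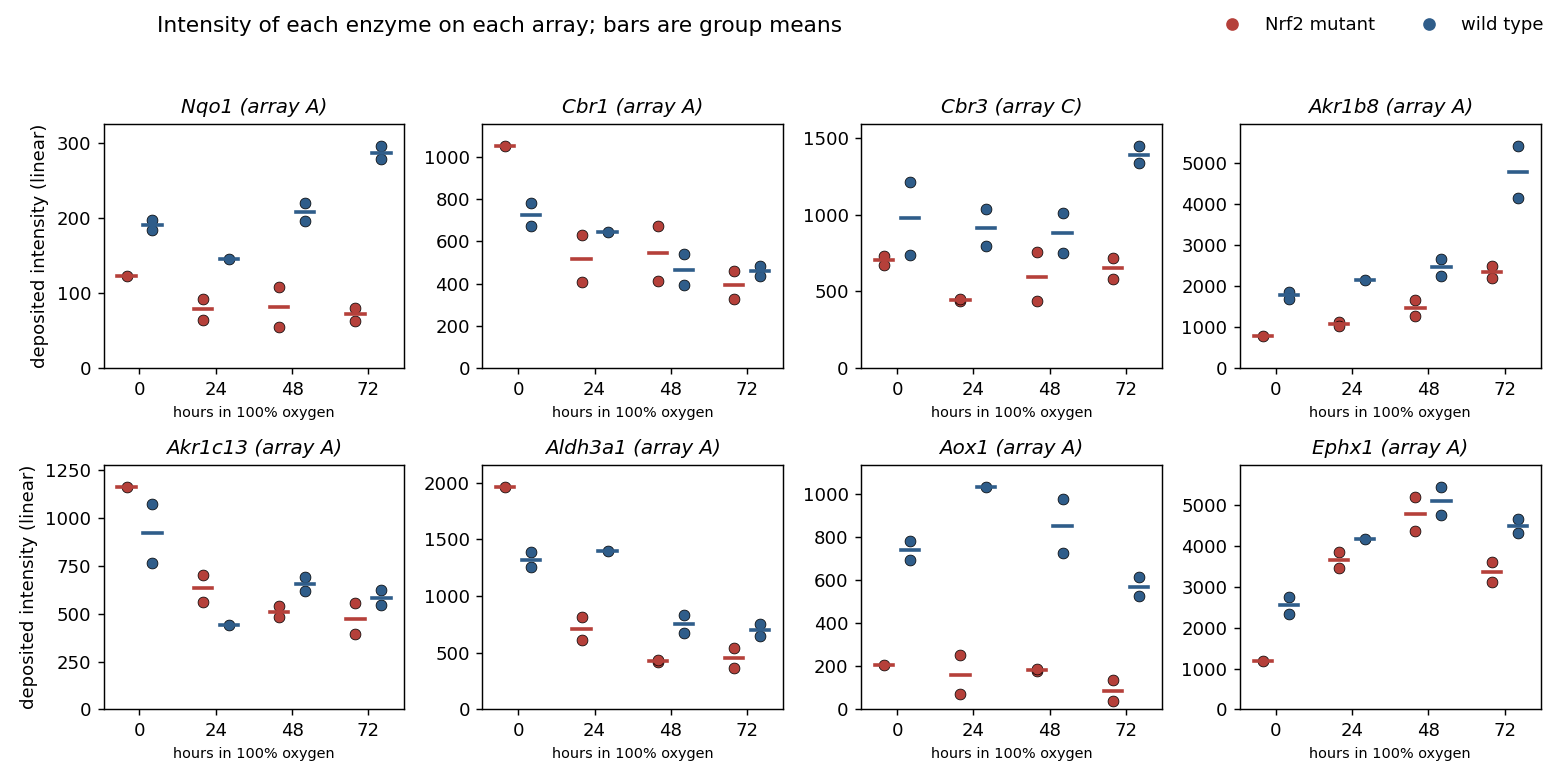
Deposited intensity (linear, 1 panel per gene with its own axis from 0) of the brightest probe set on each array, by hours in 100% oxygen, with Nrf2 mutant in red left of wild type in blue and group means as bars. Nqo1 and Aox1 lie lower on every mutant array than on any wild type array, and Akr1b8 and Ephx1 are highest in lungs given oxygen.

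Nqo1 (gene ID 18104, chromosome 8, 107388225 to 107403205 on GRCm38) reduces quinones straight to hydroquinones and so bypasses the reactive semiquinone. Its brighter probe set, which the maker marks as possibly matching a family of sequences, had an intensity of 123 at 0 h in the mutant, 64.3 and 92.6 at 24 h, 108 and 54.9 at 48 h, and 63.0 and 80.4 at 72 h. In wild type it was 184 and 197 at 0 h, 146 at 24 h, 196 and 220 at 48 h, and 279 and 296 at 72 h. Every mutant array lay below every wild type array, and the wild type arrays at 72 h were the highest of all. All 7 mutant values were below the filter value of 195 for array type A, so the log2 difference depends on the value of 78.1 added before the log2, and no fold is given. That difference was -0.89 ± 0.12 in the mean over the oxygen times (SE, limma adjusted p = 0.00437).

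A second probe set of Nqo1, marked as breaking some of the maker's selection rules, gave a wider gap. Its intensity was 97.4 at 0 h in the mutant and 8.3 to 20.6 on the 6 mutant oxygen arrays. Wild type arrays had 180.0 and 223 at 0 h, 128 at 24 h, 127 and 169 at 48 h, and 381 and 452 at 72 h. It too had 0 mutant arrays above the filter value, and again the groups did not overlap. The log2 difference was -1.62 ± 0.10 in the mean over the oxygen times (limma adjusted p = 4.18e-05).

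Aox1 (gene ID 11761, chromosome 1, 58029809 to 58106410) is a molybdenum enzyme that oxidises aldehydes to acids. Its intensity was 208 at 0 h in the mutant, 251 and 72.8 at 24 h, 177 and 186 at 48 h, and 134 and 38.8 at 72 h. The wild type arrays had 694 and 781 at 0 h, 1029.6 at 24 h, 727 and 977 at 48 h, and 525 and 612 at 72 h. The groups did not overlap at any time, and 2 of 7 mutant arrays were above the filter value, so no fold is given here either. The log2 difference in the mean over the oxygen times was -2.06 ± 0.22 (limma adjusted p = 0.00115).

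Of the 7 genes with their brightest probe set on array type A, Nqo1 and Aox1, 2 in all, had every mutant oxygen array below every wild type oxygen array. That held for 1.05% of the 8515 tested probe sets of type A, and Nqo1 was tested through its wild type arrays alone.

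Akr1b8 (gene ID 14187, chromosome 6, 34354146 to 34368461) is a mouse aldose reductase-like enzyme that reduces aldehydes with NADPH. Its intensity was 777 at 0 h in the mutant, 1027 and 1137 at 24 h, 1282 and 1659 at 48 h, and 2197 and 2499.5 at 72 h. In wild type it was 1694 and 1851 at 0 h, 2142 at 24 h, 2248 and 2659 at 48 h, and 4148 and 5410.3 at 72 h. At each time the mutant arrays lay below the wild type arrays, while the mutant at 72 h reached the level of wild type at 24 h. The enzyme was 1.84-fold lower in the mutant in the mean over the oxygen times (log2 -0.88 ± 0.12, limma adjusted p = 0.00535). Its group mean was higher at each longer time in both genotypes, which held for none of the other 7.

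Aldh3a1 (gene ID 11670, chromosome 11, 61208510 to 61218418) oxidises medium-chain and aromatic aldehydes and is best known from the cornea and the upper digestive tract. Its intensity was 1959 at 0 h in the mutant, 609 and 816 at 24 h, 421 and 437 at 48 h, and 362 and 539 at 72 h. Wild type lungs had 1256 and 1385 at 0 h, 1400.2 at 24 h, 673 and 836 at 48 h, and 646 and 758 at 72 h. Mutant arrays were lower than wild type at each oxygen time, but higher at 0 h, on the array with the squamous signal given above. The enzyme was 1.66-fold lower in the mutant in the mean over the oxygen times (log2 -0.73 ± 0.13, limma adjusted p = 0.0215). That call was lost without any 1 of 5 arrays (mutant 24 h replicate 1b, both mutant 48 h arrays, wild type 48 h replicate 1a, wild type 72 h replicate 1a), with adjusted p up to 0.0718, and in a mean over 48 and 72 h only (log2 -0.64, adjusted p = 0.0718). A second probe set was too dim to test, at 226 on the mutant 0 h array and at most 87.4 on the other 13.

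Cbr3 and Cbr1 encode carbonyl reductases that use NADPH to reduce ketones and quinones, and Cbr1 also acts on prostaglandins. The genes lie 72.9 kb apart on chromosome 16 (Cbr1, gene ID 12408, 93607837 to 93610349; Cbr3, gene ID 109857, 93683219 to 93690991). The brighter probe set of Cbr3, on array type C, had 674 and 731 at 0 h in the mutant, 438 and 448 at 24 h, 438 and 755 at 48 h, and 584 and 719 at 72 h. In wild type it had 1213 and 738 at 0 h, 1035 and 794 at 24 h, 1014 and 749 at 48 h, and 1336 and 1447 at 72 h. One mutant array at 48 h lay above 1 wild type array of the same time, and the wild type arrays at 72 h were the highest. Its difference was just outside the threshold in the mean over the oxygen times (log2 -0.80 ± 0.18, limma adjusted p = 0.0532). It passed with the stricter filter on dim probe sets (adjusted p = 0.0331) and with limma's trend and robust eBayes (adjusted p = 0.043). It also passed without mutant 48 h replicate 1b and without either wild type 0 h array, and the adjusted p ran up to 0.157 without other single arrays.

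The Cbr3 probe set on array type A had 375 to 565 on the 6 mutant oxygen arrays, against 582 to 841 on the 5 wild type oxygen arrays, with no overlap. Its log2 difference in the mean over the oxygen times was -0.56 ± 0.12 (limma adjusted p = 0.0527). In a mean over 48 and 72 h only, added after seeing the data, the brighter Cbr3 probe set was not called (log2 -0.75, adjusted p = 0.149). The one on array type A was called lower there (log2 -0.67, adjusted p = 0.036). At 0 h it ran the other way, with 791 in the mutant and 676 and 756 in wild type (log2 0.13, adjusted p = 0.83). Cbr1 had 326 to 675 on the 6 mutant oxygen arrays and 392 to 645 on the 5 wild type oxygen arrays. The wild type range lay within the mutant range, and the log2 difference was -0.11 ± 0.16, with a 95% interval of -0.48 to 0.25 (limma adjusted p = 0.885).

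Akr1c13 (gene ID 27384, chromosome 13, 4191168 to 4205604) belongs to the mouse aldo-keto reductases that act on hydroxysteroids. Close relatives lie in the same gene family, and probes may pick up more than 1 of them. Its intensity was 393 to 702 on the 6 mutant oxygen arrays and 442 to 692 on the 5 wild type oxygen arrays. The log2 difference was -0.05 ± 0.13, with a 95% interval of -0.34 to 0.24 (limma adjusted p = 0.945).

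Ephx1 (gene ID 13849, chromosome 1, 180989556 to 181017569), the microsomal epoxide hydrolase, turns epoxides into diols. It had 1181 at 0 h in the mutant, 3450.2 and 3848 at 24 h, 4357 and 5189.6 at 48 h, and 3111 and 3614 at 72 h. Wild type lungs had 2339 and 2745 at 0 h, 4173 at 24 h, 4750.0 and 5431 at 48 h, and 4313 and 4663 at 72 h. The mutant arrays lay below the wild type arrays at 0, 24 and 72 h and overlapped with them at 48 h. The log2 difference over the oxygen times was -0.23 ± 0.11 (limma adjusted p = 0.469).

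The promoters of Nqo1, Aox1 and Akr1b8 are shown because these 3 genes were called lower in the mutant both in the mean over the oxygen times and at 72 h. Each window runs from 250 bases before to 50 bases after the start that the RefSeq promoter table (GRCm38.p6) uses, where 7 of the 8 genes matched. That start is the one given with the gene's position above for Nqo1 and Akr1b8 and lies 160 bases inside the gene for Aox1. Capitals mark the motif matches described below.
Nqo1, chr8:107403156-107403455, minus strand: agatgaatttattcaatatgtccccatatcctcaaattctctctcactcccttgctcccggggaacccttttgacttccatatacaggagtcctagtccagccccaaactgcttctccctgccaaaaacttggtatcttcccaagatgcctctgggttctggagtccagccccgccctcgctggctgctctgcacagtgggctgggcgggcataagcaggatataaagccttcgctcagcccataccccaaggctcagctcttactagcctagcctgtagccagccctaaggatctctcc
Aox1, chr1:58029719-58030018, plus strand: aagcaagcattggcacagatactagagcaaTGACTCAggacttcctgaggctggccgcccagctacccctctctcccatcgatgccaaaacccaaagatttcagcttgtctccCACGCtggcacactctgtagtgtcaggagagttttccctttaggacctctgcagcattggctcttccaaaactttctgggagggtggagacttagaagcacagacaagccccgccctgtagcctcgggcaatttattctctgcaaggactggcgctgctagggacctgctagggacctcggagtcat
Akr1b8, chr6:34353896-34354195, plus strand: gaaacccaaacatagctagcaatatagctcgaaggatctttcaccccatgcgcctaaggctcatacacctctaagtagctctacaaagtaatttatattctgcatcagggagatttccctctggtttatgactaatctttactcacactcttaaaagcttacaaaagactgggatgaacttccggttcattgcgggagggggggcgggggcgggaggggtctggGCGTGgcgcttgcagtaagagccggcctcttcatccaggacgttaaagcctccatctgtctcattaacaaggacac

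Both strands of the 7 windows were searched for 3 motifs. The antioxidant response element core, TGACNNNGC, was in 0 of the 7 windows and in 12.4% of all 32851 windows of this length. The AHR core, GCGTG, was in 3 of the 7, those of Aox1, Akr1b8 and Cbr1, and in 32.4% of all windows. The core shared by AP-1 and NF-E2 sites, TGANTCA, was in 1, that of Aox1, and in 7.81% of all windows. In Aox1 the last of these is the TGACTCA that begins 220 bases before the start its window uses, which is the one 160 bases inside the gene. No match says only that these letters are not in the window, and a match is not a bound site.

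**Figure D2:**
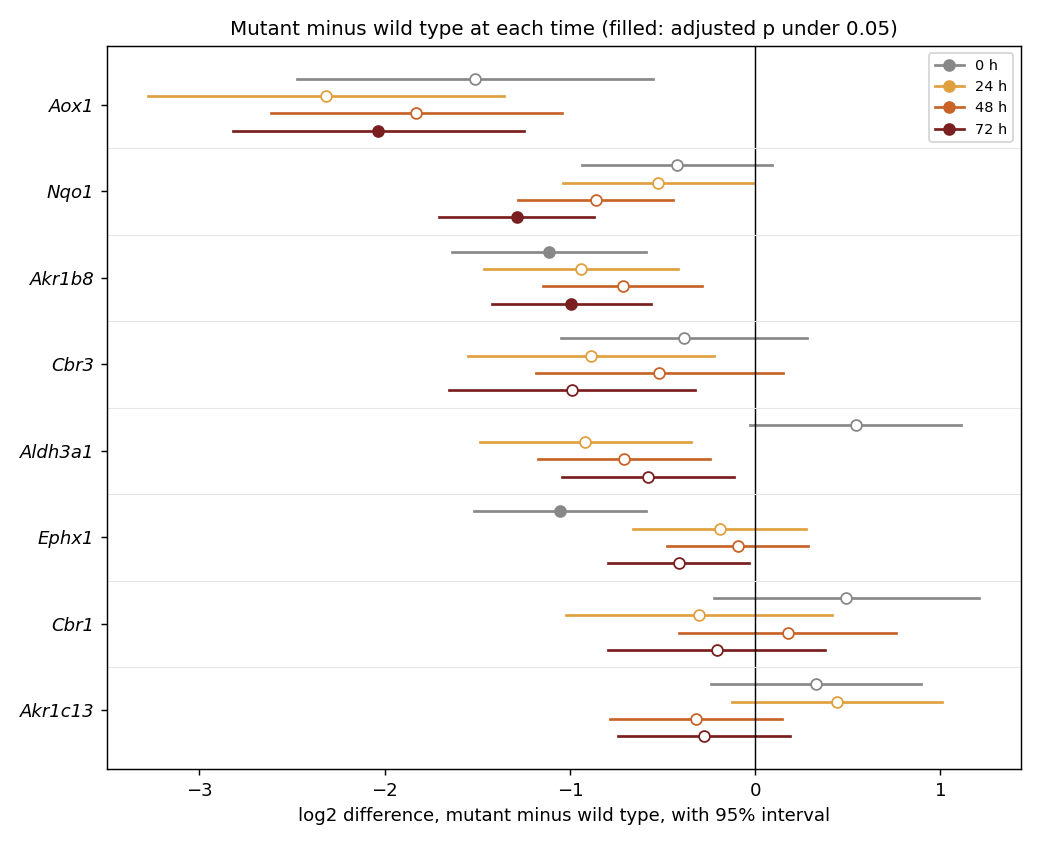
Log2 difference, mutant minus wild type, of each enzyme at 0, 24, 48 and 72 h, with the 95% interval from limma and filled points where the adjusted p was under 0.05. At 72 h Aox1, Nqo1 and Akr1b8 are filled, at 0 h Akr1b8 and Ephx1.

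Before oxygen, at 0 h, 2 of the 8 enzymes were called lower in the mutant and 0 higher, where 2.75% of all probe sets were called. Akr1b8 was 2.16-fold lower (log2 -1.11 ± 0.24, limma adjusted p = 0.0373) and Ephx1 2.08-fold lower (log2 -1.05 ± 0.21, adjusted p = 0.0287). Aox1 had a larger difference that did not pass (log2 -1.51 ± 0.43, adjusted p = 0.0985). The 0 h comparison on array type A rests on 1 mutant array, the one that stood apart. Without wild type 0 h replicate 1a, or without 1b, 0 of the 8 were called, and Akr1b8 was also lost without either array of mutant 24 h or of wild type 48 h (adjusted p up to 0.151).

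At 24 h, 0 of the 8 were called (0.157% of all probe sets), and at 48 h also 0 (0.376%), by limma's adjusted p. At an unadjusted p under 0.05 there were 5 at 24 h and 4 at 48 h, each lower in the mutant, where 9.76% and 9.01% of all probe sets in either direction passed at 24 and 48 h. Both counts take in Nqo1, whose brighter probe set was tested through its wild type arrays alone. The second probe set of Nqo1, tested through its wild type arrays alone, was called at 48 h (log2 -1.26 ± 0.17, adjusted p = 0.0102). Aox1 had its widest gap at 24 h (log2 -2.31 ± 0.43, adjusted p = 0.085), where wild type had 1 array. With the stricter filter or with trend and robust eBayes, Aox1 was called lower at 24 h (adjusted p = 0.0458 and 0.0447) and at 48 h (adjusted p = 0.0356 and 0.0359).

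At 72 h, 3 of the 8 were called lower in the mutant and 0 higher, against 0.82% of all probe sets. Nqo1 is among them, although both its probe sets were tested through wild type arrays alone. Nqo1 had a log2 difference of -1.29 ± 0.19 (limma adjusted p = 0.0104), and -2.47 ± 0.17 by its second probe set (adjusted p = 8.16e-05). Aox1 differed by log2 -2.03 ± 0.35 (adjusted p = 0.0282). Akr1b8 was 1.99-fold lower (log2 -0.99 ± 0.19), close to the threshold (adjusted p = 0.048). Leaving out 1 array at a time, Akr1b8 lost its call in 12 of 16 cases (adjusted p up to 0.334). The Akr1b8 call was also lost with quantile normalization (adjusted p = 0.0541), with the floor (adjusted p = 0.0713) and with no filter (adjusted p = 0.0656), and the floor lost that of Aox1 as well (adjusted p = 0.054). Aox1 lost its call without mutant 72 h replicate 1b or any 1 array of wild type 0 h or 72 h (adjusted p up to 0.197). Nqo1 lost its call without any 1 of the 4 arrays compared (adjusted p up to 0.0931).

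Over all 4 times with equal weight, 4 of the 8 were called lower and 0 higher, where 1.55% of all probe sets were called. That count takes in Nqo1, which was tested through its wild type arrays alone. Aox1 (log2 -1.92 ± 0.20), Nqo1 and Akr1b8 were joined by Cbr3 (log2 -0.69 ± 0.15, limma adjusted p = 0.0454). The Cbr3 call was lost in 14 of 16 left-out arrays (adjusted p up to 0.113), with quantile normalization (adjusted p = 0.0507) and with a floor in place of the added value (adjusted p = 0.0509). Aldh3a1 was not called in that mean (log2 -0.41 ± 0.12, adjusted p = 0.141), which takes in its higher value at mutant 0 h. Ephx1 was just outside the threshold (log2 -0.44 ± 0.10, adjusted p = 0.0556), and was called with the stricter filter on dim probe sets (adjusted p = 0.031) and with trend and robust eBayes (adjusted p = 0.0208).

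At the oxygen times some enzymes were higher than at 0 h and others lower. In the mutant the baseline is 0 h, whose arrays stood apart. Calls from it were common throughout, at 24.4% of all probe sets at 24 h, 17.9% at 48 h and 21.5% at 72 h by limma. By the brightest probe set, 1 of the 8 enzymes was higher and 2 lower at 24 h. At 48 h 2 were higher and 2 lower, and at 72 h 2 were higher and 3 lower. The second probe set of Nqo1, tested through its wild type arrays alone, was also called lower at each time. Its differences were log2 -0.90, -0.90 and -0.97 (each ± 0.20) at 24, 48 and 72 h. The Cbr3 probe set on array type A was called lower at 48 h (log2 -0.91 ± 0.23) and 72 h (log2 -0.72 ± 0.23), but not at 24 h. Each of these rests on the 1 mutant 0 h array that stood apart. At 72 h Akr1b8 was 2.83-fold higher (log2 1.5 ± 0.24, adjusted p = 0.00143) and Ephx1 2.73-fold higher (log2 1.45 ± 0.21, adjusted p = 0.000932). Aldh3a1 was 3.91-fold lower (log2 -1.97 ± 0.26, adjusted p = 0.00051), Cbr1 2.42-fold lower (log2 -1.27 ± 0.32, adjusted p = 0.0181) and Akr1c13 2.27-fold lower (log2 -1.18 ± 0.26, adjusted p = 0.00838). Cbr1 lost its call without mutant 72 h replicate 1a (adjusted p = 0.0865). At 24 h Ephx1 was the one higher (log2 1.56 ± 0.21, adjusted p = 0.000649), and Aldh3a1 (log2 -1.38 ± 0.26, adjusted p = 0.00362) and Akr1c13 (log2 -0.81 ± 0.26, adjusted p = 0.0428) were lower. Akr1c13 lost that call in 8 of 15 left-out arrays, those of mutant 24 h and of either genotype at 48 h and wild type at 72 h (adjusted p up to 0.164). Cbr1 was not called at 24 h (log2 -0.95 ± 0.32, adjusted p = 0.0571) or 48 h (log2 -0.89 ± 0.32, adjusted p = 0.0836). At 24 h it was called with quantile normalization (adjusted p = 0.0417), the stricter filter (adjusted p = 0.0379) and trend and robust eBayes (adjusted p = 0.0452). At 48 h Akr1b8 lost its call without mutant 48 h replicate 1a (adjusted p = 0.15) and Akr1c13 without replicate 1b (adjusted p = 0.063).

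Set against wild type at 0 h in place of mutant 0 h, a baseline chosen because those mutant arrays stood apart, the mutant at 72 h gave other calls. This comparison takes in genotype as well as oxygen and cannot tell them apart. Akr1b8 (log2 0.39, limma adjusted p = 0.239), Ephx1 (log2 0.39, adjusted p = 0.177) and Cbr1 (log2 -0.78, adjusted p = 0.0829) were not called. Aldh3a1 (log2 -1.42, adjusted p = 0.00176) and Akr1c13 (log2 -0.85, adjusted p = 0.0234) were lower under both baselines. Aox1 was lower by this baseline (log2 -2.37, adjusted p = 0.0019). Nqo1, tested through its wild type arrays alone, was lower too (log2 -0.85, adjusted p = 0.015). Against mutant 0 h neither gene was called by its brightest probe set. Between genotypes at 72 h these genes differed by log2 -2.03 and -1.29. At 24 h neither Ephx1 (log2 0.51, adjusted p = 0.0909) nor Akr1c13 (log2 -0.48, adjusted p = 0.185) was called by this baseline. Akr1b8 at 48 h changed direction, at log2 -0.27 (adjusted p = 0.491) against wild type 0 h and 0.85 (adjusted p = 0.0327) against mutant 0 h.

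In wild type lungs, 0 of the 8 were called at 24 h (1.72% of all probe sets, limma), 1 at 48 h (6.64%) and 3 at 72 h (7.83%). At 24 h an unadjusted p under 0.05 was reached by 2, Ephx1 (higher) and Akr1c13 (lower), and by 14.9% of all probe sets. Ephx1 was the one at 48 h, 1.97-fold higher than at 0 h (log2 0.98 ± 0.17, adjusted p = 0.00965). Aldh3a1 was just outside the threshold at 48 h (log2 -0.75 ± 0.21, adjusted p = 0.0598) and was called lower with quantile normalization (adjusted p = 0.0455), the stricter filter (adjusted p = 0.035) and trend and robust eBayes (adjusted p = 0.0415). At 72 h Akr1b8 was 2.60-fold higher (log2 1.38 ± 0.19, adjusted p = 0.00219) and Ephx1 1.75-fold higher (log2 0.80 ± 0.17, adjusted p = 0.0186). Aldh3a1 was 1.80-fold lower at 72 h than at 0 h (log2 -0.84 ± 0.21, adjusted p = 0.035). The second probe set of Nqo1 was 1.77-fold higher at 72 h (log2 0.82 ± 0.17, adjusted p = 0.0142), while the brighter one did not pass (log2 0.44 ± 0.19, adjusted p = 0.208). The rise of Ephx1 at 48 h lost its call without wild type 0 h replicate 1a or wild type 48 h replicate 1a (adjusted p up to 0.0829). At 72 h the Ephx1 call was lost without any 1 of the 4 arrays compared (adjusted p up to 0.122), and the Aldh3a1 call without any 1 of these or mutant 48 h replicate 1b (adjusted p up to 0.183).

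**Figure D3:**
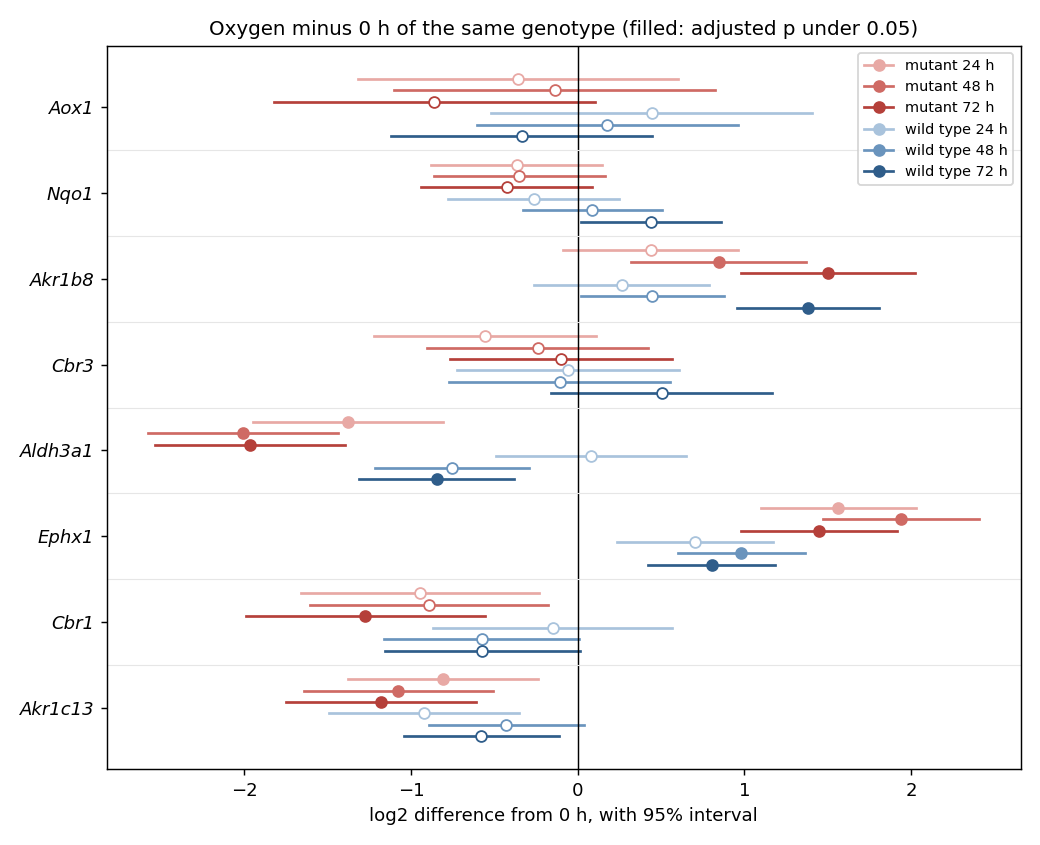
Log2 difference of each enzyme from 0 h of the same genotype after 24, 48 and 72 h of oxygen, mutant in red and wild type in blue, with 95% intervals from limma and filled points where the adjusted p was under 0.05. Akr1b8 and Ephx1 lie right of 0 at every time, and Aldh3a1, Cbr1 and Akr1c13 left of it except Aldh3a1 in wild type at 24 h.

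The response at 72 h did not differ between genotypes past the threshold for any of the 8 by the brightest probe set, where 1.36% of all probe sets were called by limma. An unadjusted p under 0.05 was reached by 3, Nqo1, Aldh3a1 and Ephx1, and by 14.2% of all probe sets. Both probe sets of Nqo1 were tested through wild type arrays alone. The second probe set of Nqo1 did differ (log2 -1.80 ± 0.26, adjusted p = 0.0115), with a fall in the mutant from its own 0 h array and a rise in wild type. For Akr1b8 the difference in response was log2 0.12, with a 95% interval of -0.56 to 0.80. For Aldh3a1 it was log2 -1.12, with an interval of -1.86 to -0.39 (adjusted p = 0.139). Counted from 24 h in place of 0 h, which leaves out the mutant 0 h array, 0 of the 8 were called (0.112% of all probe sets), 1, Nqo1, had an unadjusted p under 0.05 (7.39% of all probe sets), and the second Nqo1 probe set was not called (log2 -1.33 ± 0.26, adjusted p = 0.121).

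Of 58 related oxidoreductases, aldehyde and alcohol dehydrogenases, epoxide hydrolases and molybdenum cofactor genes, 51 had a probe set of 1 symbol and 44 were tested. In the mean over the oxygen times 3 of the 44 were lower in the mutant, 0 were higher and 41 were not called by limma. The median log2 difference was -0.07, against -0.77 for the 8 enzymes and -0.01 for all probe sets. Aox3, the aldehyde oxidase gene that lies 6.7 kb from Aox1, was 2.72-fold lower (log2 -1.44 ± 0.10, adjusted p = 1.97e-05). Its intensity on array type B was 423 to 1985 on the 6 mutant oxygen arrays, against 1446 to 5189.5 on the 6 wild type oxygen arrays, and at each time the genotypes did not overlap. Aox3 was also lower at 72 h than at 0 h in both genotypes, by log2 -1.28 ± 0.18 in the mutant (adjusted p = 0.000408) and -0.97 ± 0.18 in wild type (adjusted p = 0.00637). For Aox1 these differences were log2 -0.86 in the mutant (adjusted p = 0.199) and -0.34 in wild type (adjusted p = 0.654), and no test compared the pair of genes.

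Aldh1a7, an aldehyde dehydrogenase close in sequence to Aldh1a1, was 2.48-fold lower in the mutant (log2 -1.31 ± 0.12, limma adjusted p = 0.000465). It had 571 to 1188 on the 6 mutant oxygen arrays and 1777.5 to 2997 on the 5 wild type oxygen arrays, with no overlap. Aldh1a1, named here for its likeness in sequence, was not called (log2 -0.29 ± 0.11, adjusted p = 0.325), and the signals of the pair cannot be told apart where probes match both. Adh7, an alcohol dehydrogenase of epithelia that also acts on retinol, was 1.54-fold lower (log2 -0.63 ± 0.11, adjusted p = 0.0203). The next by p-value were not called: Adh1 (log2 0.38, adjusted p = 0.192), the aldo-keto reductase Akr1c19 (log2 -0.33, adjusted p = 0.207) and Aldh3b1 (log2 0.54, adjusted p = 0.29).

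At 72 h of oxygen, 3 of the 44 related enzymes were higher and 6 lower than at 0 h in the mutant, and 2 were higher and 3 lower in wild type, by limma. Over all probe sets 21.5% were called in the mutant and 7.83% in wild type, so these counts lie near the background. Xdh, xanthine dehydrogenase, was higher at 72 h in both genotypes, 3.11-fold in the mutant (log2 1.63 ± 0.19, adjusted p = 0.000283) and 1.74-fold in wild type (log2 0.80 ± 0.16, adjusted p = 0.0121). Its mutant baseline was the 1 array that stood apart, at 607, against 1228 and 1377 in wild type at 0 h. At 72 h the genotypes differed by log2 -0.18 (limma adjusted p = 0.821). Aldh4a1, a mitochondrial enzyme of proline breakdown, was lower at 72 h in wild type (log2 -1.89 ± 0.30, adjusted p = 0.00283). Its wild type arrays had 1044 and 1335 at 0 h and 107 and 409 at 72 h. The filter value of array type B was 272, so no fold is given. It was the 1 related enzyme whose response at 72 h differed between genotypes past the threshold (log2 2.11 ± 0.43, adjusted p = 0.0369). Over all probe sets 1.36% were called in that comparison. The comparison takes in the difference of Aldh4a1 between genotypes at 0 h (log2 -1.11, limma adjusted p = 0.0746), where the mutant arrays stood apart. Counted from 24 h, 0 of the 44 were called. Akr1c19 was 1.99-fold lower at 72 h in the mutant (log2 -0.99 ± 0.18, adjusted p = 0.00211), also counted from mutant 0 h arrays, which stood apart.

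**Figure D4:**
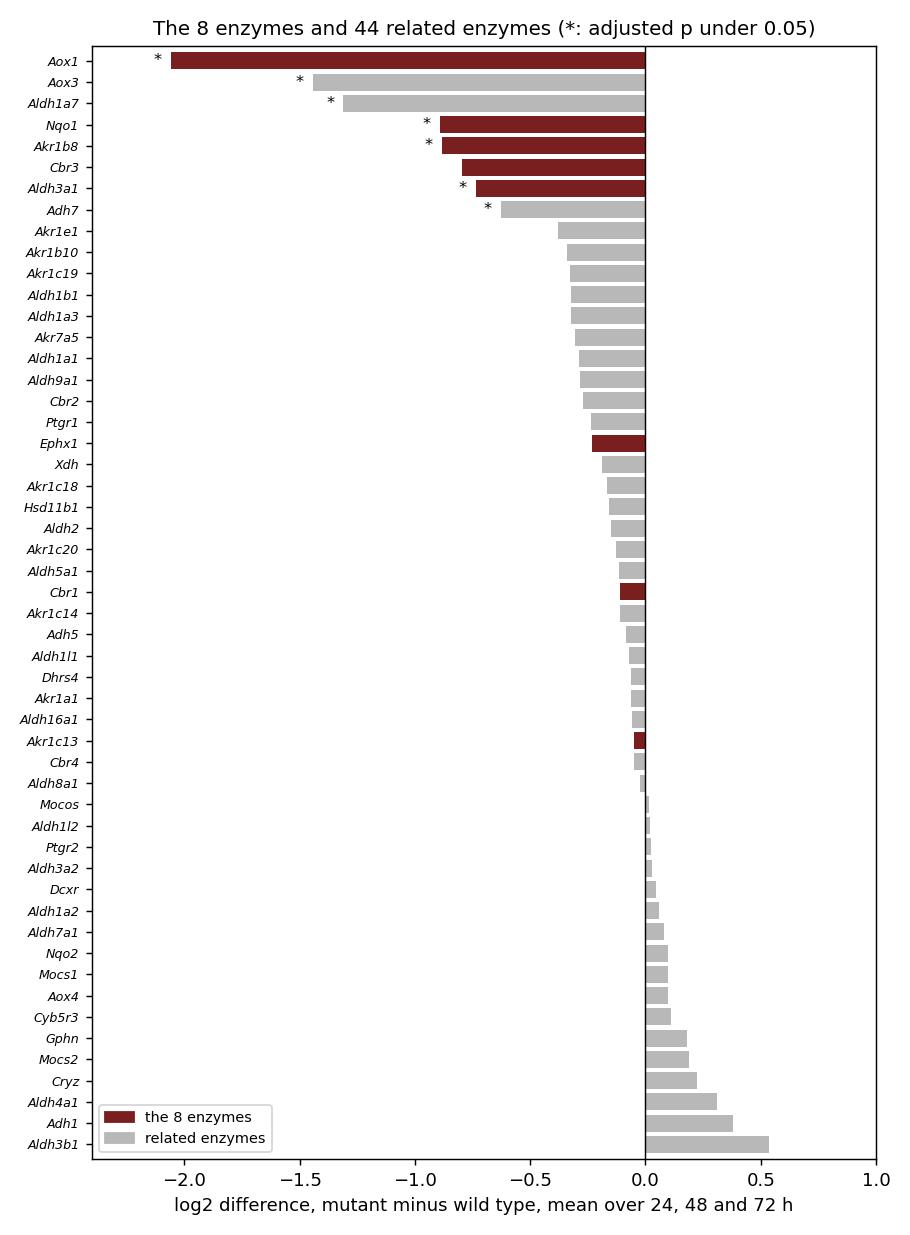
Log2 difference, mutant minus wild type, in the mean over 24, 48 and 72 h, as bars for the 8 enzymes (dark red) and the 44 related enzymes (grey), with an asterisk where the limma adjusted p was under 0.05. Aox1 is the lowest at -2.06 and Aldh3b1 the highest at 0.54, and 7 bars carry an asterisk.

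Cell type markers were read beside these results. Over the oxygen arrays of type A, the summed intensity of the 2 club cell markers on the array (of 6 listed) was 28244 to 50510.0 in the mutant and 27513 to 40916 in wild type. The sum of 3 alveolar type 2 markers (of 6) was 33360.1 to 72389 in the mutant and 37474 to 47127 in wild type. The sum of 3 ciliated cell markers (of 5) was 1107 to 1967 in the mutant and 1187 to 1947 in wild type. The 5 hepatocyte markers on the array (of 6) summed to at most 909 on any mutant oxygen array and 757 on any wild type one. The sum of 2 alveolar type 1 markers (of 5) was 21338 to 38032.5 in the mutant and 26908 to 37498 in wild type. At 72 h, where 3 enzymes were called, it was 21338 to 22348 in the mutant, against 26908 to 27966 in wild type. Of these markers, Hopx (log2 -0.51) and Ager (log2 0.16) had opposite signs in the mean over the oxygen times, and neither was called. The sum of all 6 endothelial markers was 28902 to 37847 in the mutant and 27124 to 32438 in wild type, and at 72 h it was 32186 to 32678 in the mutant, against 27124 to 27626 in wild type. The sum of 4 macrophage markers (of 6) was lower in the mutant at 24 h, at 14955 to 15707, against 18440.4 in wild type, and at 48 h, at 15841 to 16414, against 20168 to 21256 in wild type. At 72 h the macrophage sums overlapped, at 22356 to 24391.5 in the mutant and 20459.5 to 23633 in wild type. Marco, a scavenger receptor of macrophages, was the 1 of these 4 called in the mean over the oxygen times (log2 -1.42 ± 0.11, limma adjusted p = 0.000141, lower in the mutant). The neutrophil sum, of 5 markers (of 6), was 3782 to 5797 in the mutant at 48 and 72 h, against 16111 to 18232 in wild type. At 24 h the neutrophil sum was the other way, at 18013 to 19531.5 in the mutant and 8233 on the 1 wild type array. Such a sum follows its brightest markers. In the mean over the oxygen times S100a8 (log2 -1.11, limma adjusted p = 0.000207) and S100a9 (log2 -0.96, adjusted p = 0.00406) were called lower in the mutant. Mmp8 (log2 -0.81), Cxcr2 (log2 -0.69) and Csf3r (log2 0.07) were not called. The part of these marker differences in the enzymes' differences was not tested.

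The enzymes did not all vary together. Over the 14 arrays of type A, which share groups, the log2 signal of Nqo1 had a Pearson correlation of 0.78 with Aox1 and 0.63 with Akr1b8, but 0.10 with Cbr1. Aldh3a1 had 0.74 with Akr1c13 and 0.65 with Cbr1. Ephx1 had -0.72 with Cbr1, -0.64 with Akr1c13 and -0.62 with Aldh3a1. These are descriptions across arrays of different genotype and time, and the single mutant 0 h array, high for Aldh3a1, Cbr1 and Akr1c13 and low for Ephx1, enters each of them.

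Of all other tested genes on array type A, those most like Nqo1 over the 14 arrays were Gstp1, a glutathione transferase, Gpx2, a glutathione peroxidase of epithelia, and Nfe2l2 itself, at Pearson r of 0.93, 0.92 and 0.91. For Aox1 they were the carboxylesterases Ces1g (0.93) and Ces1d (0.92), and Nfe2l2 (0.91). For Akr1b8 they were Tax1bp1 (0.94), Usp39 (0.93) and the thioredoxin reductase Txnrd1 (0.91). Ephx1 was most like Atp6ap1 (0.97), Scarb1 (0.94) and Dtx2 (0.93). Aldh3a1 was most like Mb, the muscle oxygen carrier myoglobin (0.93), Gstz1 (0.92) and 4931406C07Rik (0.92). Cbr1 was most like Ccng2 (0.94), Sprr2j-ps (0.94) and Aktip (0.94), and Akr1c13 most like Gzma (0.92), Auh (0.91) and Yipf1 (0.89). On array type C, over 16 arrays, Cbr3 was most like Cwc22 (0.78), Ube2e2 (0.78) and Zfp707 (0.78). The arrays in these correlations differ in genotype and time. They include mutant 0 h, which on array type A carried the squamous and skeletal muscle signal. The part of genotype, or of that array, in these likenesses was not tested.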

How the data were processed

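Oligonucleotide arrays of types A (14), B (16) and C (16) held mouse lung RNA, grouped by genotype and time from the labels. The deposited values are the authors' linear intensity per probe set, with a 2%-trimmed mean near 800 on every array; the sources used here do not name the software or genome build. Arrays have no read depth, so their number limits the precision. From these values, log2(intensity + the array type's 25th percentile, 78.1, 126 and 106 for A, B and C) was computed, control probe sets were dropped, and a probe set was tested where it passed the 40th percentile (195, 272 and 211) on at least 2 arrays, which left 26833. Differences were tested with limma 3.58.1 in R 4.3.3, with 1 mean per group and 1 fit per array type, and two-sided p-values adjusted by Benjamini-Hochberg over all 26833. Groups of 1 array take their spread from the rest. The procedure was run on simulated data with independent noise on each array and known shifts in probe sets above the median. Those data did not represent shifts in dim probe sets, shared deviations of replicates or the mutant 0 h arrays that stood apart. Folds come from the fitted log2 differences and understate ratios of dim probe sets. Each gene is described by its brightest tested probe set; all 8 enzymes are named, and of the related enzymes the 6 with the smallest p in the mean over the oxygen times and the 3 in each genotype at 72 h. The members, lists and tests were chosen with earlier results of these data known. Probe sets were named from the platform annotation; positions and promoters are RefSeq's on GRCm38.p6. Alternatives were a floor, quantile normalization, other filters, fits with the compared groups alone, a replicate block, trend and robust eBayes, other baselines, and each array left out; the mean over 48 and 72 h was added after seeing the data. Deviations of same-named replicates from their group means correlated at r over 0.1 in 7 of 15 pairs of groups on A (r = -0.04 to 0.37), 18 of 28 on B (-0.10 to 0.24) and 2 of 28 on C (-0.02 to 0.12). Not every pair was over 0.1, and the main fit does not treat them as pairs. A shared effect of same-named replicates is not excluded by this, and the fit with a replicate block, given below, moved some calls.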

Additional observations from a re-analysis of the deposited data

Results flagged for a closer look

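The second probe set of Nqo1 changed differently with oxygen in the genotypes by 72 h (log2 -1.80 ± 0.26 for the mutant's response minus the wild type's, limma adjusted p = 0.0115). In the mutant it had 97.4 on the 0 h array and 14.4 and 8.3 at 72 h, against 180.0 and 223 at 0 h and 381 and 452 at 72 h in wild type. All mutant values are under the filter value of 195, and the 0 h value comes from the 1 mutant array that stood apart. Counted from 24 h, the difference was log2 -1.33 ± 0.26 (adjusted p = 0.121).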

How the results depend on the processing

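The counts of the 8 enzymes called in the mean over the oxygen times (4) and over all 4 times (4) stayed within 1.5 times of these values under the alternatives that gave a count, left-out arrays aside. Other counts moved. With a floor in place of the added value, 1 enzyme was called at 48 h (against 0) and 1 at 72 h (against 3). At both times it was Nqo1, tested through its wild type arrays alone. Quantile normalization gave 2 for wild type at 48 h (against 1). A fit restricted to the compared groups gave 1 at 0 h (against 2; Aox1 was gained, adjusted p = 0.043, and Akr1b8 at 0.102 and Ephx1 at 0.124 were lost), 0 at 72 h (against 3), 0 for wild type at 48 h (against 1) and 1 for wild type at 72 h (against 3). Trend and robust eBayes gave 1 at 24 h (against 0), 1 at 48 h (against 0) and 2 for wild type at 48 h. Counting any probe set of an enzyme gave 1 at 48 h and 1 in the genotypes' difference in response (against 0). Each was the second probe set of Nqo1, tested through its wild type arrays alone. The fit with the replicate block gave 2 for wild type at 48 h (against 1), and Akr1b8 at 72 h missed the threshold there (adjusted p = 0.0529). The block also brought Cbr1 in the mutant at 24 h (adjusted p = 0.0239) and 48 h (adjusted p = 0.0394), and Ephx1 in the mean over all 4 times (adjusted p = 0.0475), past the threshold. With each array left out in turn, the counts ran from 0 to 2 at 0 h, 0 to 1 at 24 h, 0 to 1 at 48 h, 0 to 3 at 72 h, 3 to 5 in the mean over the oxygen times, 3 to 4 over all 4 times, 0 to 2 for wild type at 48 h and 1 to 3 for wild type at 72 h. The 1 at 24 h came without mutant 24 h replicate 1b, the 1 at 48 h without either mutant 24 h array and the 2 for wild type at 48 h without either mutant 72 h array. The other arrays are named beside the results. Akr1b8 in the mutant at 48 h reversed to log2 -0.27 (adjusted p = 0.491) with wild type 0 h as the baseline, which takes in genotype as well as oxygen. The causes were not tested. Leaving out replicate 1b of mutant 0 h or of wild type 24 h leaves that group with no array of type A, and the stricter filter leaves Nqo1 untested, so these gave no count of all 8. Each group had 1 or 2 arrays of a type, and the mutant signal of Nqo1 and Aox1 lay near or below the filter value.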
